A study of Saccharomyces cerevisiae with 18 samples.

Results

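The 55 genes described here encode assembly and export factors of the large (60S) ribosomal subunit of budding yeast. They were chosen by locus name from a list of known factors, with earlier results of these data known. They are 55 of the 7127 features counted, and all 55 passed the filter on low counts. Their mRNAs were followed through purifications of the nuclear pore complex (NPC), the channel through which mRNA and new ribosomal subunits leave the nucleus. The pore carries a basket of filaments on its nuclear face, and the study compared transcripts that came down with pores that have it and pores that lack it.

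All 6 groups were cells of strain W303 in log phase in rich medium (YPD), unsynchronised and ground frozen, with 3 poly(A)-selected libraries in each. Basket-containing pores were purified on IgG. A GFP nanobody was used for all NPCs and for basket-less pores. The PrA control is the background on IgG, the GFP control is the background on the nanobody, and input is RNA of the total extract. The kind of pore and the matrix therefore changed together between the pores with and without a basket and cannot be told apart in a direct comparison, and the sources used here do not name the tagged proteins that caught the pores. Libraries held 10592840 to 16620246 counts, of which 32867 to 167661 fell on the 55 genes. Replicate 3 of the PrA control stood apart from its partners, with a chi-square per degree of freedom of 18.7 and 20.4, against 1.58 to 9.54 for the other pairs of replicates. Among those, input replicate 3 was at 9.54 and 4.55 from its partners, basket-containing replicate 3 at 4.62 and 5.30, and GFP control replicate 2 at 4.95 and 4.61.

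A 60S subunit begins in the nucleolus as a ribosomal RNA precursor with ribosomal proteins, is built and trimmed by assembly factors that bind and leave in order, and crosses the pore with export factors attached. Helicases, GTPases and AAA ATPases drive the steps, and placeholder proteins keep binding sites until the final ribosomal protein arrives. In yeast most of these genes belong to the ribosome biogenesis regulon, which is transcribed in step with growth. Their promoters are known for a pair of motifs: PAC, bound by the repressors Dot6 and Tod6, and RRPE, bound by Stb3.

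The promoters are shown first because these motifs were not used to choose the genes and most members carry them. A core of PAC (GATGAG) and a core of RRPE (AAAAATTT) were searched on both strands in the 250 bases that lie 300 to 51 bases before each start codon, in the RefSeq R64 genome of strain S288C. PAC was found in 49 of the 55 windows (89.1%), against 1067 of 6001 windows of protein-coding genes (17.8%). RRPE was found in 47 (85.5%), against 846 (14.1%), and both in 42 (76.4%), against 318 (5.30%). No member had a PAC and an RRPE match that overlapped. In the following stretches, written 5′ to 3′ on the gene's strand with 10 bases on either side of the outermost matches where the window allows, capitals mark matches to either core on either strand. The mRNAs of NOP7, LOC1, RLP7 and EBP2 were among those with the lowest ratio of basket-containing to basket-less pores, and RSA4 and DBP7 among those with the highest. REA1 was the only member found higher by test in basket-containing pores than in input. DBP10, LSG1, IPI1, DBP6, NOG2 and RIX7 had higher ratios than REA1 and are not shown.
NOP7 (chrVII:695267-695329, plus strand): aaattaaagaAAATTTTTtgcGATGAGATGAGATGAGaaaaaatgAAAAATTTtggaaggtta
LOC1 (chrVI:148869-149006, plus strand): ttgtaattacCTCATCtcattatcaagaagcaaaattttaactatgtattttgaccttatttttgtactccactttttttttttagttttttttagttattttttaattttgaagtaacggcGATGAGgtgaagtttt
RLP7 (chrXIV:627222-627290, minus strand): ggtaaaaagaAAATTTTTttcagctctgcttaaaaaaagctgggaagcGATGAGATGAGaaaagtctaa
EBP2 (chrXI:125624-125694, plus strand): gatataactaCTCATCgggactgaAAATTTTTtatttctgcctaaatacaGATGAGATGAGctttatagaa
REA1 (chrXII:363928-364019, minus strand): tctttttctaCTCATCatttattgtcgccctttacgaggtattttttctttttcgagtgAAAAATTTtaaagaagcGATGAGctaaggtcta
RSA4 (chrIII:242429-242488, minus strand): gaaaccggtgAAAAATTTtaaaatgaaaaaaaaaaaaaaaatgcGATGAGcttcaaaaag
DBP7 (chrXI:487496-487531, minus strand): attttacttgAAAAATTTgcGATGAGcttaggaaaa

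NOP7 has 3 PAC cores overlapping one another and an RRPE core on either side. LOC1 has PAC without RRPE, as do RRP1, RRP15, NOC3, DBP10, MAK5 and SDA1. NSA1, SPB1, RIX1, IPI1 and IPI3 have RRPE without PAC, and DBP6 has neither in this window. RSA4 and DBP7, whose mRNAs did not follow the others through the pores, carry both cores. By motif, the median log2 fold change between basket-containing and basket-less pores was -1.98 for the 42 members with both cores, -2.01 for the 7 with PAC alone, -1.49 for the 5 with RRPE alone and -0.68 for DBP6. Over all protein-coding genes tested the corresponding medians were -1.16 (317 genes with both cores), -0.14 (682), -0.26 (526) and 0.07 (4237 with neither).

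Together the 55 mRNAs took up a far smaller share of the library in basket-containing pores than in any other group. They made up 0.281, 0.286 and 0.294% of counts in the 3 basket-containing libraries, against 1.08, 1.08 and 1.08% in basket-less pores and 1.00, 1.03 and 1.03% in all NPCs. The PrA control held 0.904, 0.888 and 0.926%, the GFP control 0.907, 0.925 and 0.917%, and input 1.18, 1.19 and 1.22%. The share in basket-containing pores was thus 3.76-fold below that in basket-less pores, 3.15-fold lower than in the PrA control and 4.17-fold lower than in input, and every basket-containing library was below all libraries of the other groups. All values here are shares of a library, so less of these mRNAs and more of other RNA cannot be told apart. Leaving the ribosomal protein mRNAs, which also held a smaller share there, out of the total gave 0.292 ± 0.00639% in basket-containing pores and 1.15 ± 0.00353% in basket-less pores (SD, n = 3).

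Per kilobase of coding sequence, on the scale of CPM (counts relative to the library total, scaled by TMM factors) per kb, the members' median level was highest in input, at 140, and lowest in basket-containing pores, at 27.0. It was 103 in the basket-less group, 96.8 with all NPCs, and 88.2 and 94.3 in the PrA and GFP controls. The median of all 5773 genes with a coding length stayed between 47.0 and 58.3 in the 6 groups. The median member stood at the 79.4th percentile of genes in input and the 69.7th in basket-less pores, but at the 29.0th in basket-containing pores. Of the 55 mRNAs, 51 had their lowest mean CPM in basket-containing pores and 41 their highest in input. Counts of this kind were not made over all genes, so they describe the members alone. The exceptions at the low end were RSA4, lowest in basket-less pores, DBP7 and DBP10, lowest in all NPCs by a margin within the spread, and REA1, lowest in input. In input the highest level per length belonged to NOP7 (423), MRT4 (410), EBP2 (358), TIF6 (349) and RLP24 (344) and the lowest to RSA4 (19.4), DBP6 (27.2), DBP7 (27.8), REA1 (29.2) and IPI1 (29.9). In basket-containing pores RRP14 (156), EBP2 (106), TIF6 (74.6) and DBP10 (63.5) led instead, while NOP7 was 15th of the 55.

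**Figure D1:**
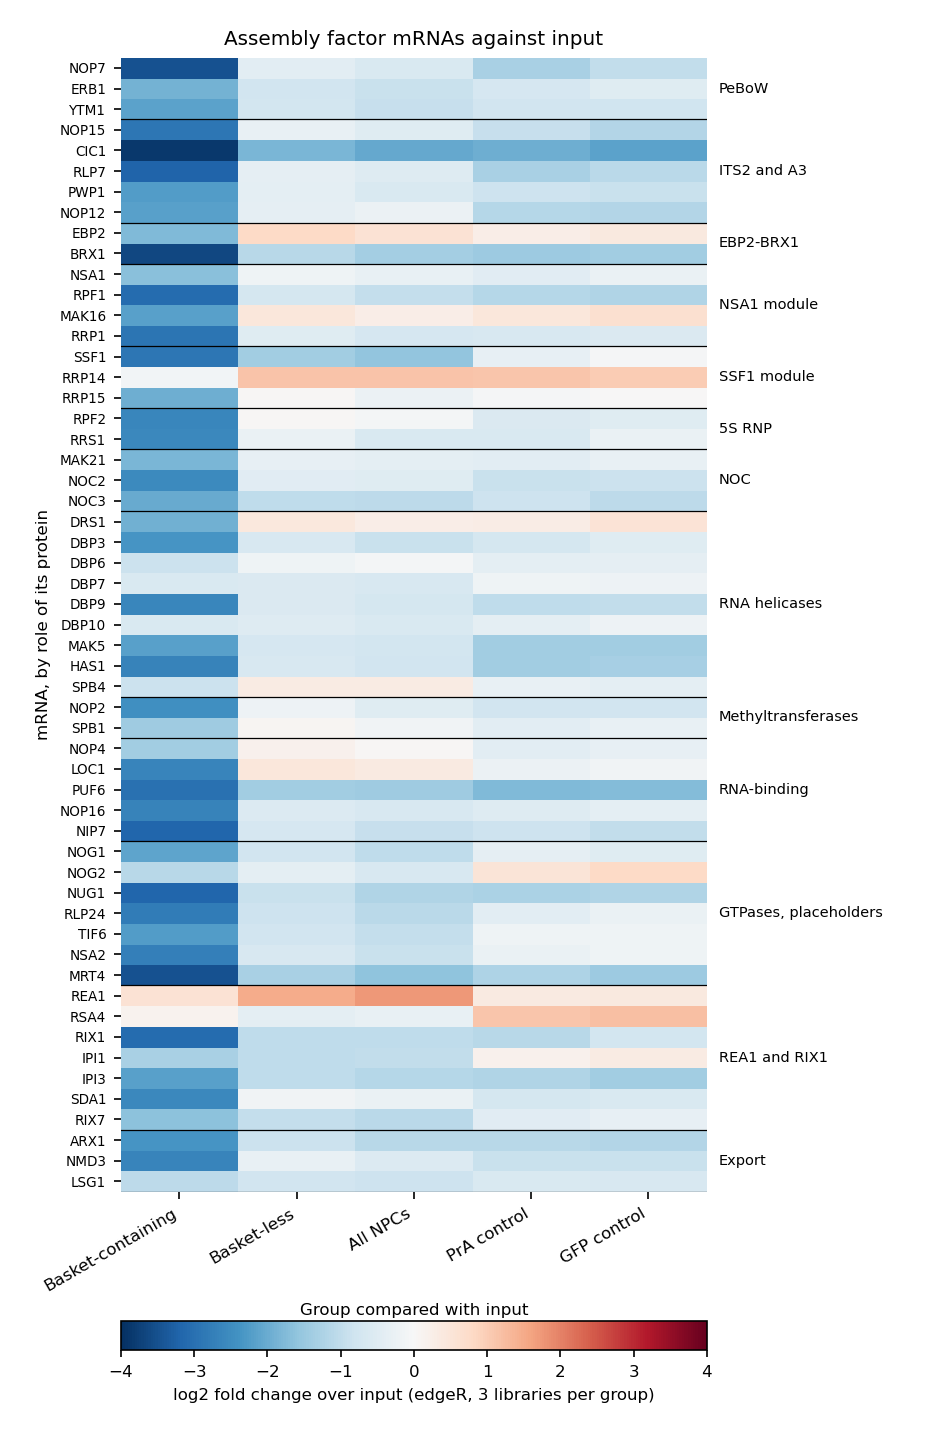
Log2 fold change over input (colour) of each of the 55 mRNAs, ordered by role, in the 5 purified groups. The column of basket-containing pores is blue (lower than input) in nearly every row, with REA1 as its single called rise, whereas the other 4 columns are paler and mixed.

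Against input, 53 of the 55 mRNAs fell in basket-containing pores and 1 rose (median -2.25), where 45.5% of the 6429 genes tested fell and 43.9% rose (median -0.05). In this and all later comparisons a gene is called at a Benjamini-Hochberg adjusted p below 0.05 in edgeR's quasi-likelihood test, adjusted over all genes tested, and values are log2 fold changes ± SE with n = 3 libraries a group. The largest falls were of CIC1 (-3.85 ± 0.09), BRX1 (-3.63 ± 0.07), MRT4 (-3.50 ± 0.06) and NOP7 (-3.48 ± 0.09). REA1 rose by 0.57 ± 0.05, RRP14 fell by 0.12 ± 0.05, and RSA4 was not called (0.14 ± 0.08, adjusted p = 0.131), but was called lower with upper-quartile factors (-0.20). In basket-less pores 44 fell and 8 rose against input (median -0.52, with 36.1% and 44.0% of all genes), and in all NPCs 45 fell and 7 rose (median -0.64, with 37.1% and 44.6%). In the background purifications 46 fell and 7 rose in the PrA control (median -0.62, with 41.2% and 37.5% of all genes), and 44 fell and 8 rose in the GFP control (median -0.49, with 42.4% and 37.2%). A smaller share than in the extract was therefore found in both controls as well, and basket-containing pores went beyond it.

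The direct comparison of the pores gave 52 members lower and 1 higher in those that contain the basket than in those without it, with 2 not called (median -1.87). Over all genes tested 42.2% were lower and 40.3% higher (median -0.04). Of the 52, 45 fell more than 2-fold, which 18.7% of all genes did, and 13 members were among the 100 genes of 6429 with the most negative log2 fold change, where members are 0.855% of the genes tested. Every basket-containing library lay below every basket-less library for 53 members, as for 43.5% of all genes. With the size factors of DESeq2 in place of TMM the median of all genes shifted up by 0.13 in this comparison, and members' falls shrank by as much. With the controls taken off, that is (basket-containing over PrA control) against (basket-less over GFP control), 51 members were lower and 1 higher (median -1.81), against 39.5% and 36.6% of all genes (median -0.03), so that 52 members passed where 76.1% of genes did.

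Other groups of ribosome genes moved in the same direction. Of 26 further 60S factors 23 fell and 3 rose in basket-containing against basket-less pores (median -1.33), for example MAK11, a further nucleolar 60S factor (-2.42 ± 0.05), and RRB1, a chaperone of ribosomal protein L3 (-2.19 ± 0.05). Of 40 factors of the small (40S) subunit 36 fell and 2 rose (median -1.08), with KRR1 at -2.84 ± 0.07. Of 81 mRNAs of large-subunit ribosomal proteins 78 fell and 1 rose (median -1.53), with RPP0, the stalk protein, at -3.05 ± 0.05. MAK11, KRR1 and RPP0 had the most negative values of their lists. The medians of the members and of the large-subunit ribosomal proteins diverged against the controls. Over the GFP control, 77 of the 81 ribosomal protein mRNAs fell in basket-less pores (median -1.11), while the median of the members was 0.18.

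**Figure D2:**
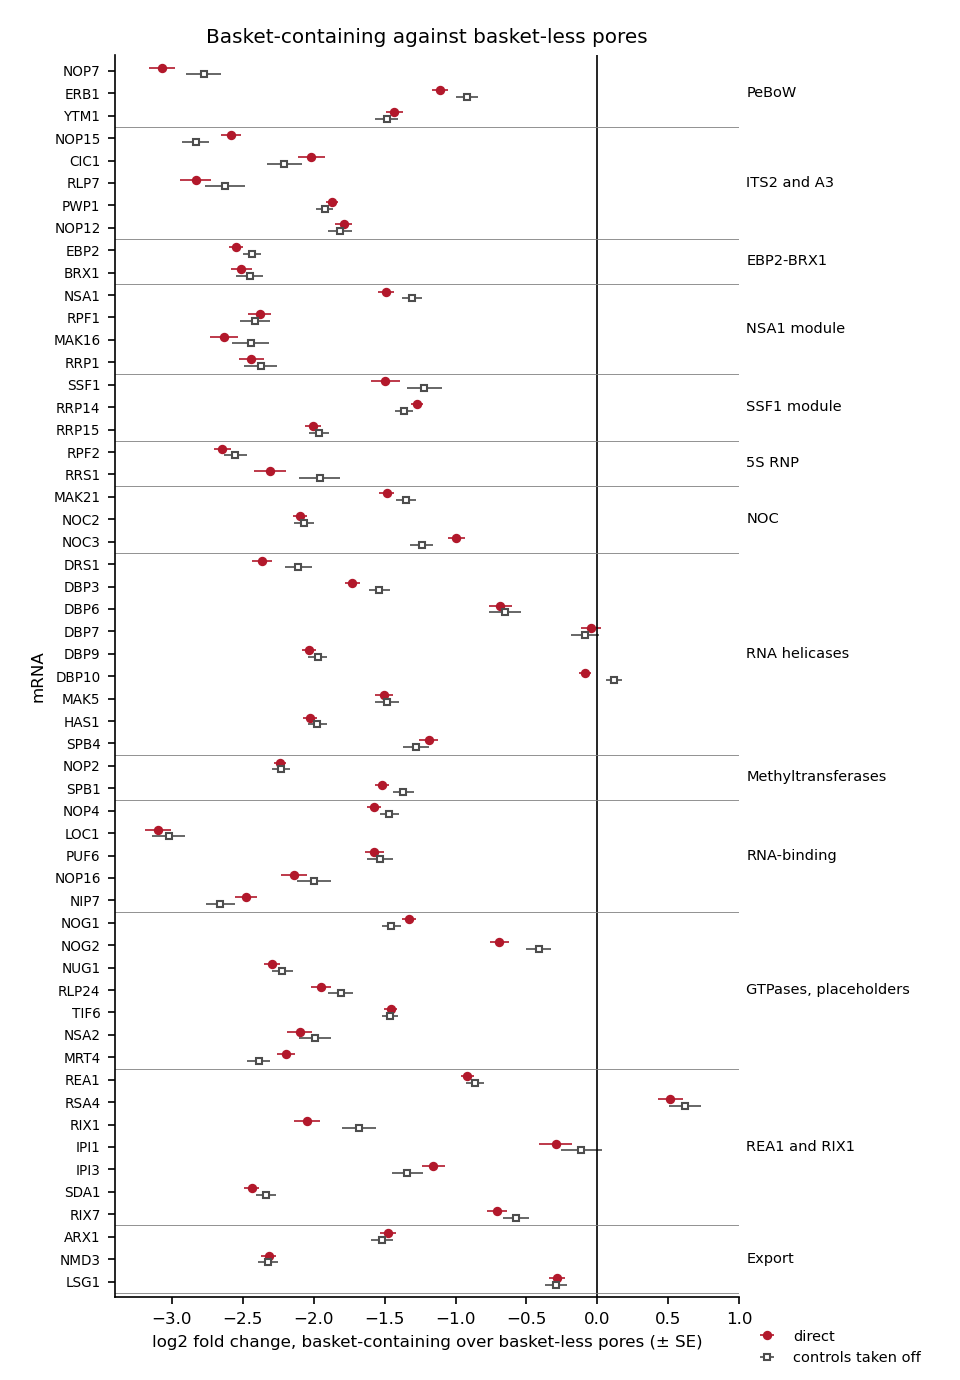
Log2 fold change (± SE) between basket-containing and basket-less pores for each mRNA, grouped by role, directly (filled circles) and with the controls taken off (open squares), 3 libraries a group. In the direct comparison all but RSA4, DBP7 and DBP10 are lower by the test, and the REA1 and RIX1 group and the helicases have the widest ranges.

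The NOP7, ERB1 and YTM1 proteins form a trimer, known as PeBoW in mammals, that is needed to process the precursor of the 25S and 5.8S rRNAs. NOP7 (locus YGR103W) was at 70.5, 65.7 and 70.0 CPM in basket-containing pores and at 581, 567 and 585 CPM in basket-less pores. It was at 481, 510 and 525 CPM in all NPCs, 297, 275 and 371 in the PrA control, 372, 403 and 379 in the GFP control and 713, 757 and 836 in input. Basket-containing libraries were far below all others and did not overlap with any, and basket-less pores were above both controls. The difference between the pores was -3.07 ± 0.09 (8.39-fold lower, edgeR adjusted p = 1.37e-15). ERB1 fell least of the trimer, from 133, 141 and 135 CPM in basket-less to 62.5, 67.03 and 60.2 CPM in basket-containing pores (-1.11 ± 0.06), and YTM1 fell by 1.43 ± 0.06. Within this 1 complex the changes of NOP7 and ERB1 were many standard errors apart, a difference that was not tested.

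Of the factors at the foot of ITS2, the spacer between 5.8S and 25S rRNA, RLP7 and NOP15 fell most. RLP7 (YNL002C) was at 27.8, 31.2 and 41.0 CPM in basket-containing and 230, 233 and 246 CPM in basket-less pores, with 121 to 140 CPM in the PrA control and 139 to 148 CPM in the GFP control. It fell by 2.83 ± 0.11 between the pores (edgeR adjusted p = 4.16e-14). NOP15 was at 17.97, 21.4 and 21.9 CPM against 120, 123 and 122 CPM (-2.58 ± 0.07). CIC1, which binds the same spacer, fell by 2.02 ± 0.09, PWP1 by 1.87 ± 0.04 and NOP12, an RNA-binding protein needed for 5.8S processing, by 1.79 ± 0.06. All 5 of this group also rose over the GFP control in basket-less pores, by 0.30 (CIC1) to 0.88 (NOP15), where 47.1% of all genes did. With upper-quartile factors, which shift this comparison by -0.27, CIC1 was at 0.03 and was not called.

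EBP2 and BRX1, a pair of early nucleolar factors, fell by 2.55 ± 0.05 and 2.51 ± 0.07 between the pores. EBP2 (YKL172W) was at 139, 135 and 135 CPM in basket-containing and 797, 811 and 784 CPM in basket-less pores. Against input the pair parted: in basket-less pores EBP2 was above it (0.79 ± 0.04) and BRX1 below it (-1.12 ± 0.06), with EBP2 at 446, 465 and 470 CPM and BRX1 at 283, 282 and 284 CPM in input. Per length, EBP2 was the most abundant member in basket-less pores (621 CPM per kb), all NPCs (536) and both controls (435 and 471), while RRP14 was above it in basket-containing pores.

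The proteins NSA1, RPF1, MAK16 and RRP1 form a module on the outer face of the early particle. MAK16 (YAL025C) was at 23.7, 26.3 and 24.1 CPM in basket-containing pores, 145, 154 and 158 CPM in basket-less pores and 137, 143 and 181.9 CPM in the PrA control. Its fall was of like size against either (-2.63 ± 0.10 and -2.64 ± 0.10), and the latter was the largest of the 55 against the PrA control. NSA1 fell least between the pores, from 136, 143 and 145 CPM to 49.7, 52.2 and 49.1 CPM (-1.49 ± 0.05), and RPF1 and RRP1 fell by 2.38 ± 0.08 and 2.44 ± 0.09. SSF1, RRP14 and RRP15 encode a second early module. Of these RRP15 fell by 2.01 ± 0.05, SSF1 by 1.49 ± 0.10 and RRP14 by 1.27 ± 0.05. RRP14 was high in every purified group other than basket-containing pores, at 485, 503 and 486 CPM in basket-less pores and 472, 451 and 521 CPM in the PrA control against 219, 220 and 226 CPM in input, and at 207, 208 and 195 CPM in basket-containing pores it was close to input. Counts of SSF1 are uncertain because its coding sequence is 92.1% identical to that of its paralogue SSF2 (1254 of 1362 bases), whose mRNA fell by 1.43 ± 0.07.

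RPF2 and RRS1 encode the pair that brings the 5S ribonucleoprotein to the particle. RPF2 (YKR081C) went from 201, 207 and 210 CPM in basket-less to 33.0, 31.6 and 34.1 CPM in basket-containing pores (-2.65 ± 0.06, edgeR adjusted p = 2.42e-22), and RRS1 from 81.9, 79.9 and 77.9 CPM to 18.7, 15.2 and 14.1 CPM (-2.31 ± 0.11). The NOC genes encode scaffold proteins of pre-ribosomes in the nucleolus and nucleoplasm. NOC2 fell by 2.10 ± 0.05, from 251, 232 and 255 CPM to 52.8, 57.9 and 62.1 CPM. MAK21, also named NOC1, fell by 1.49 ± 0.05, and NOC3, a partner of NOC2 in later particles, by 1.00 ± 0.06, from 58.5, 66.6 and 66.5 CPM to 32.7, 30.9 and 32.4 CPM.

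The 9 DEAD-box helicases were uneven. DRS1 (YLL008W) fell most, from 345, 341 and 328 CPM in basket-less to 63.4, 68.0 and 65.6 CPM in basket-containing pores (-2.37 ± 0.07). The falls then ran through DBP9 (-2.03 ± 0.05), HAS1 (-2.03 ± 0.05), DBP3 (-1.73 ± 0.05), MAK5 (-1.504 ± 0.06) and SPB4 (-1.19 ± 0.07) to DBP6 (-0.68 ± 0.08). DBP7 (YKR024C) was at 38.8, 40.4 and 41.6 CPM in basket-containing and 38.1, 43.6 and 42.4 CPM in basket-less pores, and the groups overlapped (-0.04 ± 0.07, edgeR adjusted p = 0.571). DBP10 was at 187, 189 and 193 CPM against 198, 202 and 203 CPM, which did not overlap but were not called (-0.08 ± 0.04, edgeR adjusted p = 0.0652). Both signs turn with DESeq2's size factors, to 0.09 for DBP7 and 0.05 for DBP10. Both were lower than in the matching controls, by 0.46 ± 0.07 (DBP7) and 0.20 ± 0.04 (DBP10) in basket-containing pores and by 0.37 ± 0.07 and 0.32 ± 0.04 in basket-less pores.

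**Figure D3:**
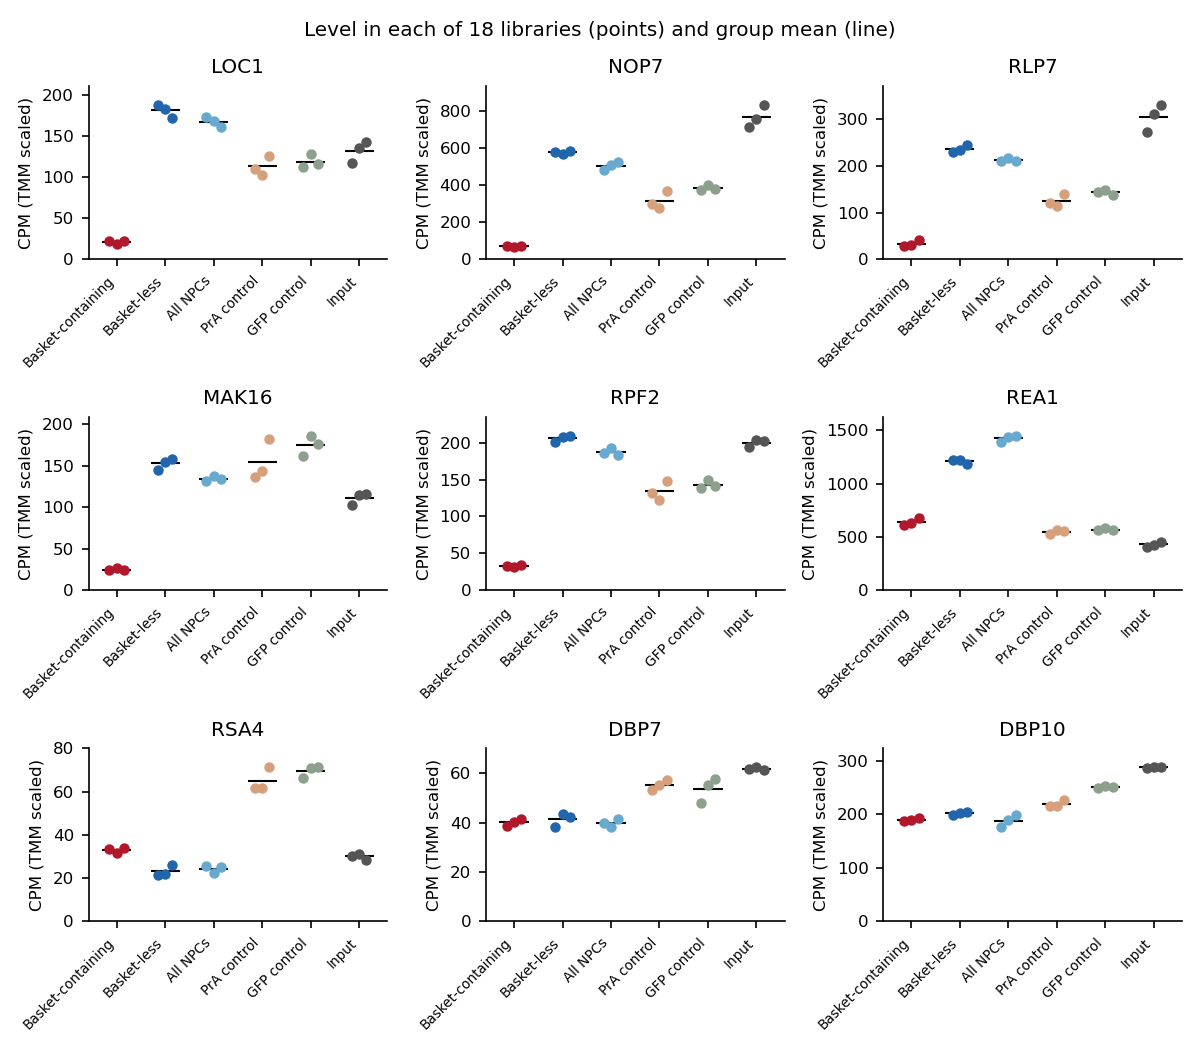
TMM-scaled CPM of 9 mRNAs in each of the 18 libraries, with a line at each group mean (linear axes from 0, 3 points a group). Basket-containing pores lie lowest for LOC1, NOP7, RLP7, MAK16 and RPF2, close to basket-less pores for DBP7 and DBP10 and above them for RSA4, and REA1 is highest in all NPCs and basket-less pores.

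NOP2 and SPB1 encode methyltransferases of 25S rRNA. NOP2 fell by 2.24 ± 0.05, from 349, 358 and 343 CPM to 72.9, 76.0 and 73.9 CPM, and SPB1 by 1.52 ± 0.05, from 316, 333 and 321 CPM to 111, 116 and 112 CPM. LOC1 (YFR001W), an RNA-binding protein of early 60S particles that is also known for localisation of ASH1 mRNA, had the largest fall of all members. It was at 21.9, 19.0 and 22.4 CPM in basket-containing pores, 189, 183.6 and 172.8 CPM in basket-less pores, 174, 168.2 and 162 CPM in all NPCs, 110, 103 and 126 CPM in the PrA control, 113, 128 and 117 CPM in the GFP control and 118, 135 and 144 CPM in input. Basket-less pores and all NPCs were above every control and input library, and basket-containing pores were below them all. Between the pores LOC1 fell by 3.10 ± 0.09 (8.57-fold lower, edgeR adjusted p = 1.07e-18), the 19th most negative of 6429 genes. PUF6, another RNA-binding protein with a role in ASH1 localisation, fell by 1.57 ± 0.07, as did NOP4 (1.57 ± 0.05), and NIP7 and NOP16 fell by 2.48 ± 0.08 and 2.14 ± 0.09.

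Among the GTPases NUG1 (YER006W) fell most, from 183.5, 188 and 191 CPM to 36.6, 38.7 and 39.4 CPM (-2.30 ± 0.06), and NOG2, which holds a site on the particle until the export adaptor NMD3 can bind, fell least, from 138, 140 and 132 CPM to 79.1, 91.2 and 84.2 CPM (-0.69 ± 0.07). NOG2 was the only member with an intron and holds the small nucleolar RNA gene SNR191 within it. Reads from the 2 could not be separated here, since the counting rule is not given in the sources used. NOG1 fell by 1.33 ± 0.05. Of the placeholders and late binders, TIF6, which keeps the subunits apart, fell by 1.46 ± 0.04 and NSA2 by 2.10 ± 0.09. RLP24, a placeholder for ribosomal protein L24, fell by 1.95 ± 0.07, and MRT4, a placeholder for the stalk protein P0, by 2.19 ± 0.06. NSA2 had one of the 3 largest falls of members over the IgG background, from 95.7, 88.2 and 113 CPM in the PrA control to 16.3, 18.8 and 18.7 CPM (-2.47 ± 0.08).

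The group of REA1, a giant AAA ATPase that strips factors from the late nuclear particle, and its partners held the clearest exceptions. REA1 (YLR106C) has the longest coding sequence of the 55, 14733 bases on chromosome XII. It was at 611, 627 and 679 CPM in basket-containing, 1225, 1218 and 1180 CPM in basket-less pores and 1386, 1442 and 1451 CPM in all NPCs. The PrA control held 523, 565 and 557 CPM, the GFP control 560, 582 and 564 CPM and input 405, 428 and 456 CPM, so every pore library was above every control and input library. REA1 was the only member higher in basket-containing pores than in the PrA control (0.22 ± 0.05, edgeR adjusted p = 6.74e-05), but the value was -0.12 with upper-quartile factors. Of the 55 REA1 rose most over the GFP control in basket-less pores (1.09 ± 0.05) and still fell between the pores by 0.92 ± 0.05. REA1 made up 19.1 ± 0.723% of the members' counts in basket-containing pores and 3.54 ± 0.0845% in input, with 11.5 ± 0.272% in basket-less pores and 14.5 ± 0.121% with all NPCs (SD, n = 3). Without it the members' share was 4.97-fold lower in basket-containing pores than in input.

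RSA4 (YCR072C), the adaptor on the particle that the REA1 protein pulls, was the only member that was higher with the basket than without it. It was at 33.3, 31.7 and 33.9 CPM in basket-containing, 21.3, 21.8 and 26.1 CPM in basket-less pores, 25.3, 22.1 and 25.1 CPM in all NPCs, 61.6, 61.6 and 71.5 CPM in the PrA control, 66.1, 70.8 and 71.6 CPM in the GFP control and 30.3, 31.3 and 28.5 CPM in input. The controls were the highest groups and all pores were far below them. The difference between the pores was 0.51 ± 0.09 (edgeR adjusted p = 8.08e-06), while basket-containing pores were below the PrA control (-0.97 ± 0.08) and basket-less pores below the GFP control (-1.59 ± 0.08). IPI1, of the RIX1 complex that docks REA1, was likewise highest in the controls, with 13.1, 10.8 and 12.5 CPM in basket-containing pores, 16.7, 14.1 and 14.2 CPM in basket-less pores, 31.0 to 38.7 CPM in the PrA control and 36.2 to 39.4 CPM in the GFP control. Its fall between the pores (0.29 ± 0.11, edgeR adjusted p = 0.0197) was not called with DESeq2's size factors (-0.16) or without basket-containing replicate 3 (-0.18). The mRNAs of the other 2 proteins of that complex behaved otherwise: RIX1 fell by 2.04 ± 0.09 and IPI3 by 1.16 ± 0.08. SDA1, of the same nucleoplasmic particle, fell by 2.44 ± 0.05, from 276, 266 and 268 CPM to 49.7, 51.7 and 48.0 CPM, and RIX7, the AAA ATPase that releases NSA1, by 0.71 ± 0.07.

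Of the export factors, NMD3 (YHR170W), the adaptor for the exportin Crm1, fell by 2.32 ± 0.05, from 223, 216 and 220 CPM to 43.5, 43.3 and 45.1 CPM. ARX1, an auxiliary export receptor, fell by 1.48 ± 0.06. LSG1, the cytoplasmic GTPase that releases NMD3, fell only by 0.28 ± 0.06, from 56.7, 59.0 and 59.7 CPM to 48.6, 46.7 and 48.6 CPM.

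Over the IgG background, 54 members fell and REA1 rose in basket-containing pores (median -1.67), where 46.5% of all genes fell and 43.8% rose (median -0.07). The falls ran from 0.20 ± 0.04 (DBP10) to 2.64 ± 0.10 (MAK16), and 44 were more than 2-fold, against 28.6% of all genes. SSF1 was second, from 60.1, 62.0 and 73.6 CPM in the PrA control to 10.9, 10.6 and 11.1 CPM (-2.58 ± 0.09). LSG1, at 65.7, 65.6 and 64.4 CPM against 48.6, 46.7 and 48.6 CPM, had one of the smaller falls (-0.44 ± 0.06). Without replicate 3 of the PrA control, or without any other single library, the counts were again 54 lower and 1 higher.

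Over the nanobody background the members went both ways, as all genes tested did. In basket-less pores 31 rose and 16 fell (median 0.18), where 47.1% of all genes rose and 35.5% fell (median 0.11). With upper-quartile factors, which shift the median of all genes by -0.27, the counts were 19 and 27. Those of all 6429 genes were then 2203 and 3125. The rises were of REA1, then NOP15 (120, 123 and 122 CPM against 71.0, 64.5 and 63.4 CPM, 0.88 ± 0.06) and NOP12 (137, 136 and 153 CPM against 76.7, 85.8 and 81.5 CPM, 0.80 ± 0.06). SPB4, RLP7, MAK5 and HAS1 followed, at 0.69 to 0.73. The falls were led by RSA4 (-1.59 ± 0.08), SSF1 (29.8, 30.3 and 31.6 CPM against 78.7, 82.8 and 74.4 CPM, -1.36 ± 0.08), IPI1 (-1.35 ± 0.10) and NOG2 (-1.19 ± 0.06), each more than 2-fold, as were 11.3% of all genes. By role, the 5 ITS2 factors rose, while of the 7 GTPases and placeholders 5 fell (NOG1, NOG2, RLP24, TIF6 and NSA2) and 2 rose (NUG1 and MRT4). With upper-quartile factors CIC1 and NUG1 were not called (both 0.03) and MRT4 was lower (-0.13). All NPCs gave 24 rises and 21 falls over the same control (median 0.04, with 46.9% and 37.6% of all genes). With upper-quartile factors these were 8 and 34, and those of all 6429 genes 2315 and 3183. These 2 comparisons share the GFP control. In them REA1 was at 1.09 and 1.33, NOP12 at 0.80 and 0.93, SSF1 at -1.36 and -1.54, and NOG2 at -1.19 and -1.41.

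**Figure D4:**
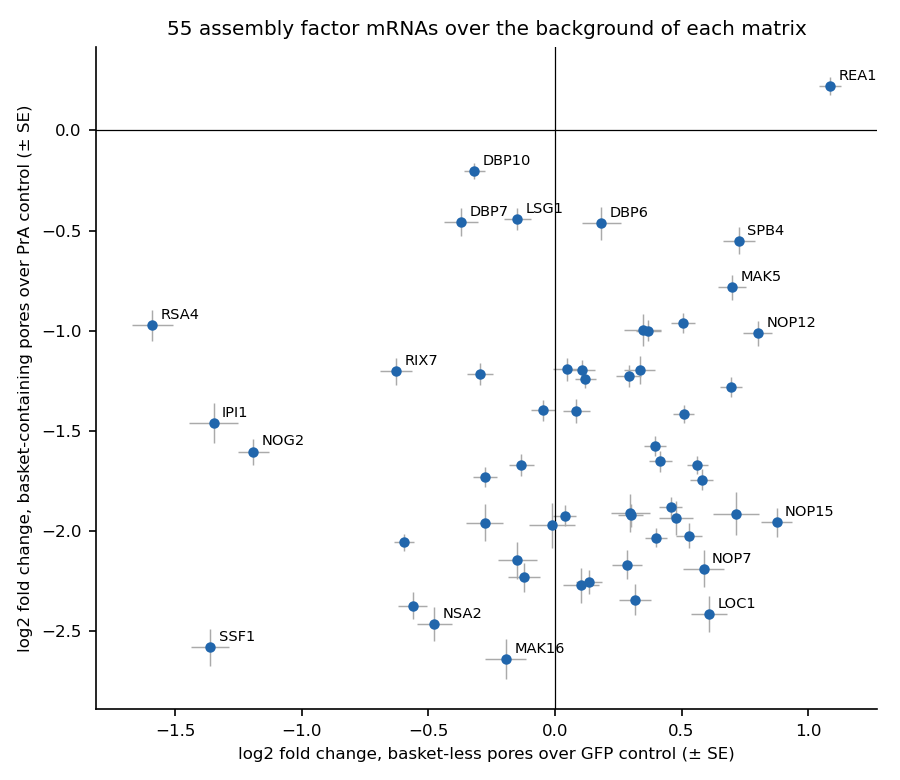
Each mRNA's log2 fold change in basket-containing pores over the PrA control (vertical) against that over the GFP control in basket-less pores (horizontal), TMM scaled, ± SE. All points but REA1 lie below zero, while they spread to both sides of zero horizontally, with REA1 farthest right and RSA4, SSF1, IPI1 and NOG2 farthest left. With upper-quartile factors REA1 is at -0.12 vertically, and 27 members are called lower against 19 higher horizontally (3125 and 2203 of all 6429 genes).

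Of the 55, 30 fell in basket-containing pores over their control and rose in basket-less pores over theirs, 16 fell in both, 8 fell in the first alone with no call in the second, and REA1 rose in both. The same calls held for 7.56%, 30.5%, 8.46% and 36.6% of all genes. With upper-quartile factors the 55 members were instead 19, 27, 9 and 0. The shares of all genes with these joint calls were not computed under those factors. For basket-less pores over the GFP control alone, 2203 of 6429 genes were then higher and 3125 lower. The 2 differences had SDs of 0.65 and 0.57 across the members, against 1.57 and 0.99 across all 6429 genes. Within the members' narrower range they were barely related, with a Spearman correlation of 0.13, against 0.81 across all genes. This is a description across genes, which are not independent replicates, but the comparisons share no library. The 2 backgrounds themselves differed little for these genes: 5 members were higher and 12 lower in the PrA than in the GFP control (median -0.06), where 16.1% and 16.7% of all genes were, and all differences lay between -0.36 and 0.25. That count of lower members was 25 without replicate 3 of the PrA control, when that of all genes was 22.9%.

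Against all NPCs, which were purified on the same nanobody, basket-less pores had 30 members higher and 1 lower (median 0.15), with 20.3% of all genes higher and 22.8% lower. The differences were small, at most 0.34 ± 0.09 (RRS1), 0.31 ± 0.05 (NUG1) and 0.29 ± 0.05 (MRT4). The 1 that fell was REA1 (-0.24 ± 0.04), and NOP12, at -0.13 ± 0.06, was not called (edgeR adjusted p = 0.0520).

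Across the 55 members the log2 fold change between the pores had a Spearman correlation of -0.70 with the level per length in input, against -0.36 across 5773 genes. TIF6, 4th of the members in input, fell less than the median member, and MAK16, 34th, fell more. With coding length it was 0.48 (0.46 without REA1), close to the 0.45 of all genes. The members' medians were nevertheless below those of all genes of like length: -2.38 against -0.49 under 1000 bases (15 members), -1.49 against 0.05 from 1000 to 2000 bases (27 members) and -1.504 against 0.61 over 2000 bases (13 members). For basket-less pores over their own control the correlation with length was 0.04 in the members and 0.53 across all genes. For basket-containing pores over the PrA control it was 0.68 in the members and 0.57 across all genes. Level per length has the coding length in its divisor and input libraries are not used in either pore difference. These are descriptions across genes with no test.

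**Figure D5:**
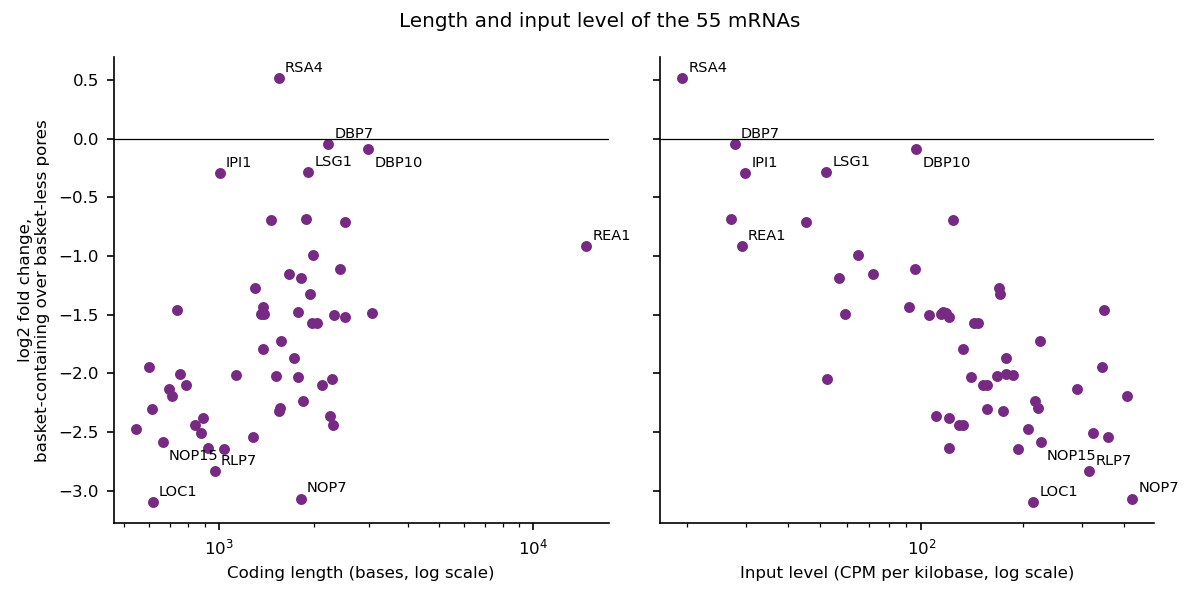
Log2 fold change between basket-containing and basket-less pores of each member against coding length (left, log axis) and against its level per length in input (right, log axis). Points descend to the right with input level (Spearman -0.70), and short mRNAs lie lower than long ones (0.48).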

How the data were processed

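RNA-seq was read as the raw read counts per gene that the authors deposited, 1 column a library over 7127 features. Per the submitters' processing notes, STAR, featureCounts, DESeq2 and build R64 were used; settings, strandedness and the treatment of reads with several matches are not given in the sources used. Counts were not altered. One edgeR 4.0.16 quasi-likelihood fit (R 4.3.3; filterByExpr, 6429 genes kept; TMM factors; glmQLFit with robust estimation; glmQLFTest, two-sided) covered the 18 libraries in 6 groups, and 12 comparisons were contrasts in it. Benjamini-Hochberg adjustment ran over all genes tested, and genes were called below 0.05; the SE is |log2 fold change| divided by √F. CPM are TMM scaled, and CPM per kb uses coding length without untranslated regions. The labels do not say that replicates are separate cultures, so the p-values speak of the spread among these libraries alone, which may be technical.

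Alternatives were DESeq2's size factors, upper-quartile factors, a mean count of at least 50, no filter, the DESeq2 1.42.0 Wald test, the replicate number as a block, only the groups compared, and each library left out. The fit was tested on simulated data. Any of the 55 members could be named. Values per library were printed for the 5 lowest and 5 highest in the direct comparison of the pores and the 3 highest and 3 lowest over each background. They were also printed for the extremes of the 13 roles, except RRP15, PUF6 and NOP4, and with BRX1 in input alone. EBP2, BRX1 and RRP14, among others, have values where a contrast with input is described. Genes named from each other list were among its 3 with the smallest adjusted p. The members and lists were chosen with earlier results of these data known. Of the features, 6047 matched RefSeq's R64 annotation by locus name, and promoter windows were read from that genome. The cells were W303, so bases may differ from S288C.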

Additional observations from a re-analysis of the deposited data

Results flagged for a closer look

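A difference between the pores' effects over their own backgrounds was tested for each mRNA as a contrast in the 1 fit: the log2 fold change of basket-containing pores over the PrA control minus that of basket-less pores over the GFP control. It passed the threshold (edgeR quasi-likelihood, Benjamini-Hochberg adjusted p below 0.05 over all genes tested, n = 3 libraries a group) for 52 of the 55 members, where 76.1% of all genes did. Negative values mean a lower ratio in basket-containing pores. The difference was -2.77 for NOP7, -1.48 for YTM1 and -0.92 for ERB1 among the NOP7 trimer. Among the ITS2 factors it was -2.83 for NOP15, -2.63 for RLP7, -2.21 for CIC1, -1.92 for PWP1 and -1.81 for NOP12. For the EBP2 and BRX1 pair it came to -2.45 for BRX1 and -2.43 for EBP2. The difference was -2.44 for MAK16, -2.41 for RPF1, -2.38 for RRP1 and -1.31 for NSA1 among the NSA1 module. Among the SSF1 module it was -1.96 for RRP15, -1.36 for RRP14 and -1.22 for SSF1. For the 5S loading pair it came to -2.55 for RPF2 and -1.96 for RRS1. The difference was -2.07 for NOC2, -1.35 for MAK21 and -1.24 for NOC3 among the NOC proteins. Among the helicases it was -2.11 for DRS1, -1.97 for HAS1, -1.97 for DBP9, -1.54 for DBP3, -1.48 for MAK5, -1.28 for SPB4 and -0.65 for DBP6. For the methyltransferases it came to -2.23 for NOP2 and -1.37 for SPB1. The difference was -3.02 for LOC1, -2.66 for NIP7, -2.00 for NOP16, -1.53 for PUF6 and -1.47 for NOP4 among the RNA-binding factors. Among the GTPases and placeholders it was -2.39 for MRT4, -2.22 for NUG1, -1.99 for NSA2, -1.81 for RLP24, -1.46 for TIF6, -1.45 for NOG1 and -0.41 for NOG2. For the REA1 and RIX1 group it came to -2.34 for SDA1, -1.68 for RIX1, -1.34 for IPI3, -0.87 for REA1, -0.58 for RIX7 and 0.62 for RSA4. The difference was -2.32 for NMD3, -1.52 for ARX1 and -0.29 for LSG1 among the export factors. 

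DBP7 (-0.09 ± 0.10), DBP10 (0.12 ± 0.06) and IPI1 (-0.11 ± 0.14) did not pass. RSA4 was the single positive value among those that passed. Its level was below the controls in both kinds of pore, and less so in basket-containing pores. LOC1, NOP15 and NOP7 had the most negative values. With DESeq2's size factors the median of all genes in this contrast moved up by 0.14, and DBP10 then passed as higher. The kind of pore, the matrix and the tagged protein cannot be told apart in these differences, beyond the taking off of each control.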

How the results depend on the processing

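The counts of members lower in basket-containing pores held in every alternative run, within 1.5 times. With upper-quartile factors the median of all genes moved by -0.34 in basket-containing pores over the PrA control, where REA1 reversed to -0.12 and 0 members were higher. Over the GFP control the same factors gave 19 higher and 27 lower in basket-less pores (2203 and 3125 of 6429 genes). In all NPCs they gave 8 and 34 (2315 and 3183 of all genes), with PWP1 (-0.019), RPF1 (-0.041), DBP9 (-0.028) and IPI3 (-0.060) reversed. MRT4 reversed to -0.13 in basket-less pores over that control. Over input the upper-quartile factors gave 3 higher in all NPCs (2133 of 6429 genes), with DRS1 at -0.014, and RSA4 reversed to -0.20 in basket-containing pores. Between the pores, DBP7 and DBP10 reversed with DESeq2's size factors (0.086 and 0.046), no filter (0.079 and 0.039), the DESeq2 Wald test (0.086 and 0.046) and without basket-containing replicate 3 (0.061 and 0.033, the highest of -0.0979 to 0.0608 and -0.0965 to 0.0334 over libraries left out). With controls taken off, DBP7 was 0.054, 0.031 and 0.054 under the first 3 of those settings, with a range of -0.143 to 0.0125 over libraries left out, and IPI1 was 0.025, 0.00405 and 0.024. Under these settings, and without PrA control replicate 3, 2 members were higher in place of 1, DBP10 being added. Members lower in basket-less pores than in all NPCs were 2 in place of 1 with a mean count of at least 50, no filter, the replicate block and only the groups compared. In the PrA over the GFP control, fitting only those groups gave 3 higher and 4 lower.

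Leaving out single libraries gave 50 to 51 lower and 1 to 2 higher with controls taken off, 1 to 2 lower in basket-less pores than in all NPCs, and 3 to 6 higher and 9 to 25 lower in the PrA against the GFP control. With ribosomal protein genes out of the total, the members' share was 1.40% in input, 1.15% in basket-less pores, 1.07% with all NPCs, and 1.03 and 1.06% in the PrA and GFP controls. Deviations of same-numbered libraries correlated at 0.001 on average (-0.16 to 0.28 over 45 pairs), so no pairing by number was seen on average. An average cannot exclude that same-numbered libraries of some groups share a culture or batch. With the replicate block 52 members were lower and 1 higher between the pores, and 16 lower and 5 higher in the PrA against the GFP control. The lowest members by mean CPM in basket-containing pores, IPI1 and SSF1, had at least 104 counts in each library there. NIP7 had 101 counts in basket-containing replicate 2, the fewest of any member in that group.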
